A study of Homo sapiens with 8 samples.

Results

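K562 is an established human leukaemia line with erythroid and megakaryocyte features. The study held 8 RNA-seq libraries of K562 cells labelled SF3B1 wild type or SF3B1 K700E, in which 1 µg/ml doxycycline induced the modified allele, at 4 or 8 days with 2 replicates per label and day. The labels do not say how the allele was made, whether a line was 1 clone, or whether replicates were separate cultures, so p-values measure only the spread between these libraries, which may be technical. The results below concern 4 of the 8 libraries, those in which a cryptic acceptor of TMEM14C, joined by the junction chr6:10723242-10724555 (GRCh38, plus strand), held 30% or more of the unique reads leaving its donor. The libraries were chosen by that measured share, so its values are a description. It held 59.3% of 674 reads in K700E day 4 replicate 1 and 56.8% of 472 reads in K700E day 4 replicate 2. It held 70.7% of 1394 reads in the library labelled wild type day 8 replicate 2 and 70.3% of 1547 reads in K700E day 8 replicate 2. The 95% Wilson intervals, which cover counting error only, ran from 52.3 to 63.0% over the day 4 libraries and from 67.9 to 73.1% over the day 8 libraries. The 4 libraries left out held between 3.63% and 11.2%, and the highest of them was labelled K700E day 8 replicate 1. At day 8 the junction therefore went against 2 of the 4 labels, and the comparison is between cryptic-high libraries of day 4, both labelled K700E, and cryptic-high libraries of day 8, 1 of them labelled wild type.

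SF3B1 is the largest subunit of SF3b, the part of the U2 snRNP that holds the branch point during recognition of the 3′ splice site. Hotspot changes such as K700E are known for the use of cryptic acceptors a short way upstream of the usual one, which adds a few bases to the mRNA. These cryptic acceptors lie just upstream of a normal acceptor, often after a short stretch rich in pyrimidines.

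The added bases are what the junction shares below count, so they are shown for 5 targets from annotated transcripts (GENCODE release 29, GRCh38). Each line reads 5′ to 3′ along the mRNA. Lower case before the capitals is the end of the upstream exon, the capitals are the bases added when the cryptic acceptor is used, and lower case after them is the start of the usual exon.
TMEM14C, chr6:10723242-10724555, plus strand: tgagaccgCTTGTTTTCTGCAGgtgcaggc
DLST, chr14:74889350-74889877, plus strand: gaaagCCTTTGATTGTCTTTTCAGctgttg
DYNLL1, chr12:120496217-120496401, plus strand: tctccacgGCCTTGCCCACTAGgtaaccat
ERGIC3, chr20:35556272-35556954, plus strand: ggagagGCTCCCCTCCCACCCCAGgtactg
METTL5, chr2:169812525-169815476, minus strand: tagcagGTGGCTTTTGTTTTACAGaacttc
Each coordinate pair is the intron removed. The added bases number 14 in TMEM14C, 19 in DLST, 14 in DYNLL1, 18 in ERGIC3 and 18 in METTL5, and each of the 5 stretches ends in AG.

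The 4 libraries held 60953200 to 77750812 unique reads over splice junctions. The alignment logs were dated May for the day 4 libraries, February for the library labelled wild type day 8 replicate 2 and March for K700E day 8 replicate 2. The alignment session and the day therefore cannot be told apart. Junctions seen with a single unique read made up 2.53% of the junctions listed for the library labelled wild type day 8 replicate 2 and 17.3 to 20.6% in the other 3. The labels name the cell type as epithelial. GATA1, a transcription factor of erythroid cells, stood at 148 to 212 CPM (reads of the gene scaled by library size) in the 4 libraries, whereas CDH1, the epithelial cadherin, stood at 0 to 0.0418 CPM. EPCAM and keratins were present, with KRT8 at 166 to 1026 CPM.

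SF3B1 (chr2:197389784-197435091) stood at 742 and 723 CPM at day 4, and at 425 CPM in both day 8 libraries. The days did not overlap, and the change of -0.79 ± 0.14 (log2, SE) had an adjusted p of 0.0316 in edgeR's quasi-likelihood test with Benjamini-Hochberg adjustment. After adjustment for GC content, added after the data were seen, the change was -0.30 with an adjusted p of 0.289 in the same tool. SF3B1 is not deleted in this design, so its level is no check of the labels.

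Use of the cryptic acceptors of known hotspot targets was compared between the days, to ask whether it was larger after 8 days than after 4. Of 30 listed targets, 24 had a tested acceptor 1 to 50 bases upstream of the acceptor most used in the wild-type day 4 libraries. The median share over the 23 targets other than TMEM14C was 31.8% and 32.0% in the day 4 libraries. It was 33.7% in the library labelled wild type day 8 replicate 2 and 25.6% in K700E day 8 replicate 2. The difference of -2.26 percentage points was no larger than the spread between libraries (exact two-sided permutation test, p = 1, where 2 against 2 libraries can give no p below 0.333). Without K700E day 8 replicate 2 it was 1.78 points and without the library labelled wild type day 8 replicate 2 it was -6.29 points, so 1 library decided its direction. Counted by target, the mean share was higher at day 8 for 15 of the 23 and lower for 8. This tally is opposite in sign to the difference of the medians. Beside it, 1910 of 3092 tested near-upstream acceptors were higher at day 8 and 1182 were lower. Among all 71704 tested acceptors, 36112 were higher and 35590 lower.

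Single targets differed in direction. DPH5, an enzyme of diphthamide synthesis, had shares of 47.4% and 53.7% at day 4, 72.7% in the library labelled wild type day 8 replicate 2 and 63.7% in K700E day 8 replicate 2. Both day 8 values lay above both day 4 values. DLST, an enzyme of the citric acid cycle, had 71.0% and 60.2% at day 4 and 56.6% and 54.0% at day 8 in the same order. Both of its day 8 values lay below the day 4 values.

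METTL5, a methyltransferase of ribosomal RNA, had shares of 11.0% and 12.5% at day 4 and 21.6% and 16.4% at day 8. ERGIC3, a protein of the early secretory pathway, had 10.1% and 9.04% at day 4 and 15.0% and 15.5% at day 8. PPP2R5A, a regulatory subunit of protein phosphatase 2A, had 22.3% and 20.3% at day 4 and 18.5% and 7.21% at day 8. METTL5 and ERGIC3 were higher in both day 8 libraries and PPP2R5A was lower in both. ZNF91, a zinc finger repressor of retroelements, had 44.1% and 38.5% at day 4 and 36.8% and 19.0% at day 8, again lower in both.

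DYNLL1, a dynein light chain, had 61.4% and 60.8% at day 4 and 64.3% and 59.3% at day 8, so that the days overlapped. MAP3K7, the kinase TAK1, had 63.3% and 57.5% at day 4 and 77.2% and 62.4% at day 8. OXA1L, an insertase of the mitochondrial inner membrane, had 18.6% and 14.4% at day 4, 45.7% in the library labelled wild type day 8 replicate 2 and 17.6% in K700E day 8 replicate 2. For OXA1L the 2 day 8 libraries differed from each other by more than either K700E day 4 library differed from K700E day 8 replicate 2.

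Over the 23 targets, 7 were higher in both day 8 libraries and 5 were lower in both. Of 3092 tested near-upstream acceptors, 26.9% were higher in both day 8 libraries and 14.2% were lower in both. Among all 71704 tested acceptors these shares were 22.3% and 22.4%. The 7 and 5 were not tested against either background. None of the 23 had an unadjusted p under 0.05 in edgeR's diffSpliceDGE, and none was called. That test has little power here, so the lack of calls says little about single targets. SERBP1 is on the list, but its near-upstream acceptor also held 19.96 to 27.9% in the cryptic-low libraries.

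**Figure D1:**
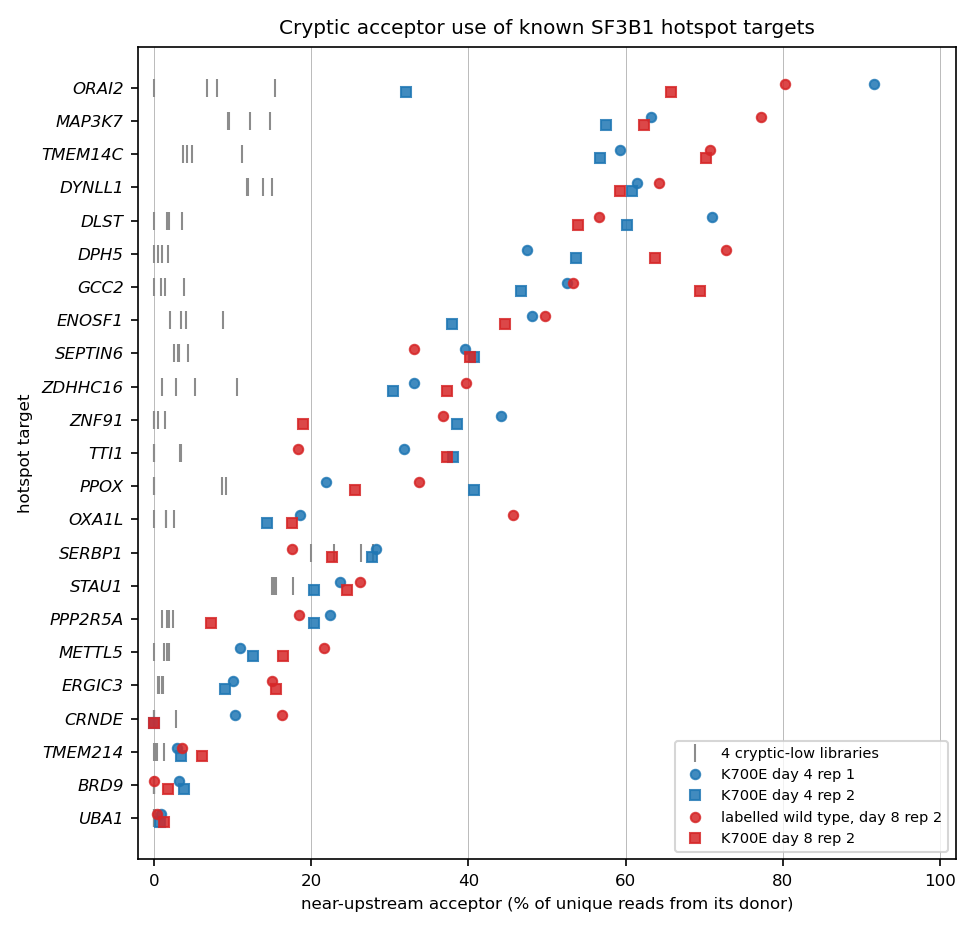
Share of unique reads from a donor that used the near-upstream acceptor (x axis, %) for 23 of the 24 listed hotspot targets (y axis). Blue symbols are the day 4 libraries, red symbols the day 8 libraries and grey ticks the 4 cryptic-low libraries; the day 4 and day 8 symbols lie on both sides of each other, as for DPH5 (higher at day 8) and DLST (lower at day 8).

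A wider set was described in the same way, with no test of the set as a whole. It held 200 near-upstream acceptors, TMEM14C left out. Each was under 5% in both wild-type day 4 libraries and had a mean of 10% or more over the 4 cryptic-high libraries. The choice was made after the data were seen and does not treat the days alike. Its 5% limit and the usual acceptor were set on day 4 libraries alone. Acceptors in use in the cryptic-low libraries of day 8 could therefore enter, which can favour higher shares at day 8. The median distance of the 200 to the usual acceptor was 17 bases. The median share was 18.4% and 16.3% in the day 4 libraries, 21.1% in the library labelled wild type day 8 replicate 2 and 18.01% in K700E day 8 replicate 2. The mean share was higher at day 8 for 127 of them and lower for 73, with a median difference of 3.26 points. The tally over all 3092 near-upstream acceptors was similar, with 1910 higher and 1182 lower. Among all 71704 tested acceptors, 36112 were higher and 35590 lower. Both day 8 libraries were higher for 57 of the 200 and lower for 23, beside the 26.9% and 14.2% of all near-upstream acceptors. Among all tested acceptors these shares were 22.3% and 22.4%. Of the 200, 6 had an unadjusted p under 0.05 in diffSpliceDGE (3%), beside the 5.30% of all near-upstream acceptors. That test has little power here, so the small count says little.

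**Figure D2:**
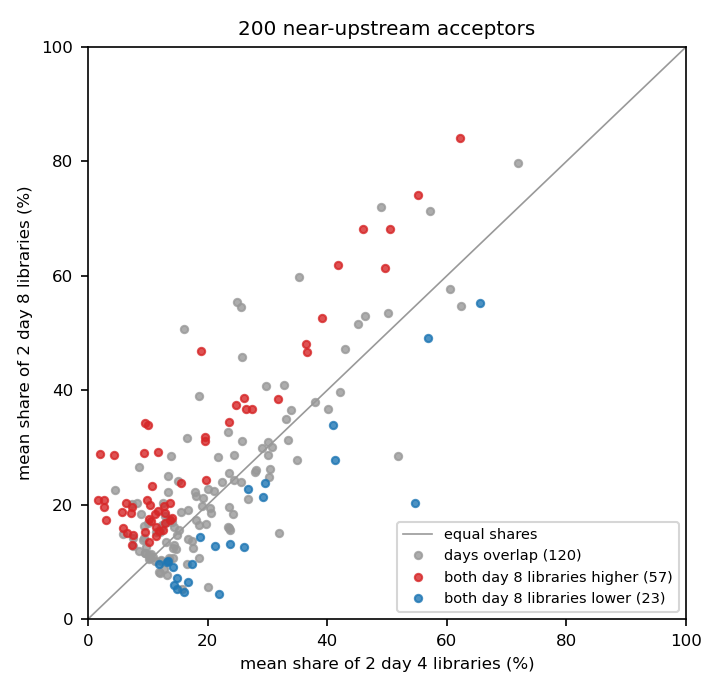
Mean share of the 2 day 4 libraries (x axis, %) against that of the 2 day 8 libraries (y axis, %) for 200 near-upstream acceptors. Points lie on both sides of the line of equal shares; 57 were higher and 23 lower in both day 8 libraries, and 120 overlapped.

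Across the whole transcriptome no change of acceptor was called. The test fixed for this comparison, edgeR's diffSpliceDGE with a threshold of 0.05 on the adjusted p and of 5 percentage points, called 0 of 71704 acceptors (0%). An unadjusted p under 0.05 was found for 3740 (5.22%), and the lowest adjusted p was 0.203. On simulated data with 2 libraries a day this test recovered 0% of 3-fold share changes, so a count of 0 says little about single acceptors. In all, 7 tests of acceptor use were run, 5 of them added after the results had been seen, and they called 0, 0, 0, 0, 45, 81 and 9304 acceptors. The largest count came from a test that made many false calls on simulated data. Limma on log odds of acceptors with middle shares, the most sensitive of the others there, called 0 of 46472, with 12.2% at an unadjusted p under 0.05. Acceptors called by some of these tests alone are not treated as changed.

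The 6 acceptors with the lowest p are given as values, since none was called. PICALM encodes a clathrin assembly protein, and its intron chr11:85978094-85981128 is annotated. It held 6.30% and 5.10% of reads from its donor at day 4, 17.7% in the library labelled wild type day 8 replicate 2 and 41.4% in K700E day 8 replicate 2 (adjusted p = 0.203, diffSpliceDGE). SPRED2, an inhibitor of Ras signalling, had an intron absent from the annotation, chr2:65332052-65344718, at 1.43% and 0.638% at day 4 and 20.6% and 16.6% at day 8. The cryptic-low libraries showed the same order for SPRED2, with 3.08% and 0.612% at day 4 and 27.4% and 26.7% at day 8.

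HNRNPC, which binds uridine tracts in pre-mRNA, had an annotated intron, chr14:21263830-21269297, at 1.10% and 1.40% at day 4 and 7.48% and 6.18% at day 8. FLNC, an actin crosslinker, had an annotated intron, chr7:128849579-128850383, at 20.04% and 15.1% at day 4 and 0.732% and 0.624% at day 8. IGF2BP3, an mRNA binding protein, had an intron absent from the annotation, chr7:23343847-23469935, at 11.5% and 10.3% at day 4 and 0% and 0.947% at day 8. SNRPD1, a core protein of spliceosomal snRNPs, had an intron absent from the annotation, chr18:21622802-21623870, at 4.83% and 6.68% at day 4 and 0.717% and 0.729% at day 8. The days did not overlap for any of the 6, and the adjusted p of the 5 after PICALM ran from 0.216 to 0.352 in diffSpliceDGE. In the cryptic-low libraries the days did not overlap for any of the 6 either, each in the same direction. PICALM, for example, had 5.65% and 3.58% at day 4 there and 29.5% and 10.3% at day 8.

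Donor use gave 0 calls of 65424 (0%) in diffSpliceDGE, with 4000 donors (6.11%) at an unadjusted p under 0.05. NAP1L1, a histone chaperone, passed the threshold on the adjusted p (0.00309, diffSpliceDGE) but not the 5 points, as its donor held 3.68% and 4.29% at day 4 and 0.312% and 0.523% at day 8. MAGED2 had 38.7% and 32.2% at day 4 and 2.997% and 5.996% at day 8. ASPM, a protein of the spindle pole, had 31.9% and 35.6% at day 4 and 0.943% and 1.79% at day 8, the latter pair over 106 and 56 reads. SIL1, a nucleotide exchange factor of the endoplasmic reticulum, had 25.0% and 24.7% at day 4 and 0.728% and 2.71% at day 8. RAB27A and FLNC completed the 6 with the lowest p, and both were lower in both day 8 libraries. The last 5 had an adjusted p of 0.111 in diffSpliceDGE. In the cryptic-low libraries MAGED2 had 35.2% and 31.7% at day 4 and 3.99% and 10.4% at day 8, and SIL1 had 15.03% and 28.2% and then 1.81% and 1.02%, so that both were lower at day 8 there too. ASPM was not, with 12.9% and 19.5% at day 4 and 22.4% and 7.33% at day 8. NAP1L1, RAB27A and FLNC were lower in both cryptic-low libraries of day 8 than in both of day 4.

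Gene levels were compared as sums of unique reads over annotated introns. Of 14224 genes tested, 1137 rose (7.99%) and 1120 fell (7.87%) from day 4 to day 8 in edgeR's quasi-likelihood test, and 2257 (15.9%) were called in all. Leaving out any 1 of the 4 libraries left 0 called, with 3382 to 4934 genes at an unadjusted p under 0.05. Adjustment for the GC content of the genes, added after the data were seen, also left 0 called, with 3230 at an unadjusted p under 0.05. The words rose and fell below refer to the 4-library fit alone.

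The day difference followed GC content. Across genes, Pearson's r between the log2 change and GC percent was 0.52. The same measure was 0.03 for the difference between the 2 day 4 libraries and -0.11 for that between the 2 day 8 libraries. In the octile of lowest GC content the median change was -0.66, 0.28% of genes rose and 21.7% fell. In the octile of highest GC content the median change was 1.05, 32.1% rose and 0.11% fell. Whether base composition acted through the libraries or through the cells was not tested.

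**Figure D3:**
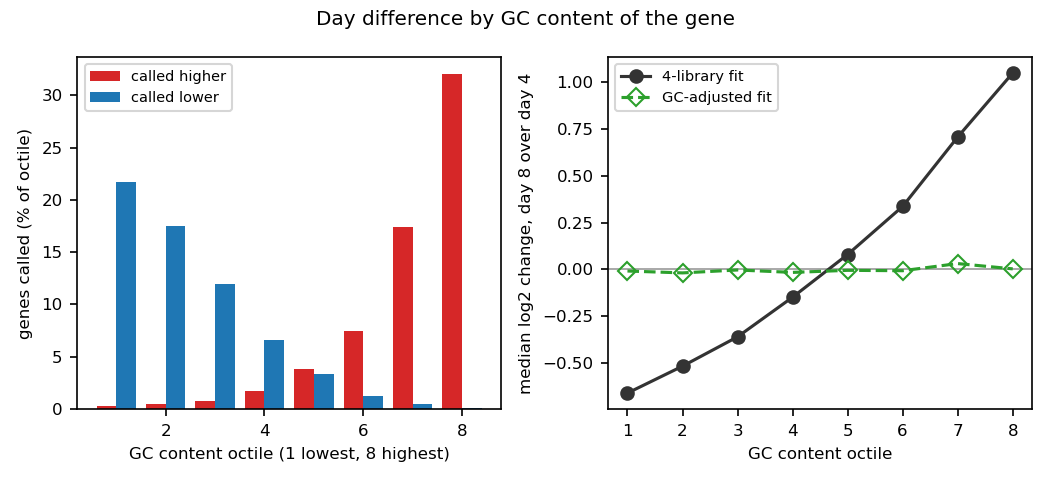
Left, genes called higher (red) or lower (blue) as a percentage of each octile of GC content (x axis). Right, median log2 change of the octiles in the fit of 4 libraries and after adjustment; the calls move from 21.7% lower in octile 1 to 32.1% higher in octile 8, and the adjusted medians stay near 0.

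The 12 largest changes in each direction were taken from called genes whose days did not overlap, beside 33.3% of all genes with both day 8 libraries higher and 32.9% with both lower. Erythroid genes were among the largest falls. HEMGN, a nuclear protein of haematopoietic progenitors, stood at 82.5 and 51.8 CPM at day 4, at 2.04 CPM in the library labelled wild type day 8 replicate 2 and at 1.55 CPM in K700E day 8 replicate 2. Its change was -5.23 ± 0.36 (log2, SE; adjusted p = 0.0287, edgeR), and -4.61 after GC adjustment. CA1, the erythroid carbonic anhydrase, stood at 23.6 and 4.04 CPM at day 4 and at 0.133 and 0.559 CPM at day 8. CD36, a scavenger receptor, stood at 79.5 and 177 CPM at day 4 and at 6.45 and 8.11 CPM at day 8. For each of the 3 both day 8 libraries lay far below both day 4 libraries.

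ITGA4, the integrin alpha 4 chain, stood at 32.1 and 43.8 CPM at day 4 and at 2.64 and 0.691 CPM at day 8. Its change was -4.51 ± 0.70 in the cryptic-high libraries and 0.05 in the cryptic-low libraries (adjusted p = 0.944, edgeR). The difference of the 2 changes, -4.51, did not pass the threshold (adjusted p = 0.613, edgeR). SLC7A11, the cystine transporter, stood at 48.9 and 29.3 CPM at day 4 and at 4.67 and 2.499 CPM at day 8. HEPACAM2, FAM178B, MCTP2, ACTA2, CDS1, RDM1 and CCDC15 made up the 12 largest falls, whose changes ran from -5.31 to -3.45. In the cryptic-low libraries the changes were above 0 for ITGA4 and MCTP2 (1.38). For the rest of the 12 they ran there from -7.88 (HEMGN) to -0.96 (CCDC15).

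The largest rises started from low levels. KRT81, a hair keratin that shares sequence with related keratins, had 0 reads in both day 4 libraries and 1.21 and 9.17 CPM at day 8. Against a floor of 3 reads per library at day 4 this was at least 111-fold higher by the day 8 mean, and at least 25.9-fold higher by the library labelled wild type day 8 replicate 2 alone. TFF1, a secreted trefoil peptide, stood at 4.67 and 4.21 CPM at day 4, at 110 CPM in the library labelled wild type day 8 replicate 2 and at 27.1 CPM in K700E day 8 replicate 2. The 2 day 8 libraries thus differed from each other by several fold while both lay above day 4.

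ADGRG1, an adhesion G protein-coupled receptor, stood at 1.61 and 2.09 CPM at day 4 and at 26.2 and 28.9 CPM at day 8. Its change of 3.90 ± 0.28 (adjusted p = 0.0287, edgeR) was 3.24 after GC adjustment, and 0.41 in the cryptic-low libraries. In those, with all 8 libraries normalised together, ADGRG1 stood at 3.24 and 3.37 CPM at day 4 and at 7.28 and 1.05 CPM at day 8. IL2RB, the interleukin-2 receptor beta chain, stood at 1.47 and 0.628 CPM at day 4 and at 8.01 and 38.2 CPM at day 8. SELPLG, the ligand of P-selectin, stood at 0.967 and 1.60 CPM at day 4 and at 12.7 and 21.05 CPM at day 8. KCNQ1, CEACAM1, RAB44, RIN1, PAQR4, C4orf48 and CES1 made up the 12 largest rises, and apart from KRT81 the changes ran from 3.38 to 6.02. In the cryptic-low libraries the changes of these 12 were above 0 too, from 0.33 (CES1) to 7.16 (KCNQ1) apart from KRT81. GC content of these 12 genes ran from 47.2 to 73.2%.

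**Figure D4:**
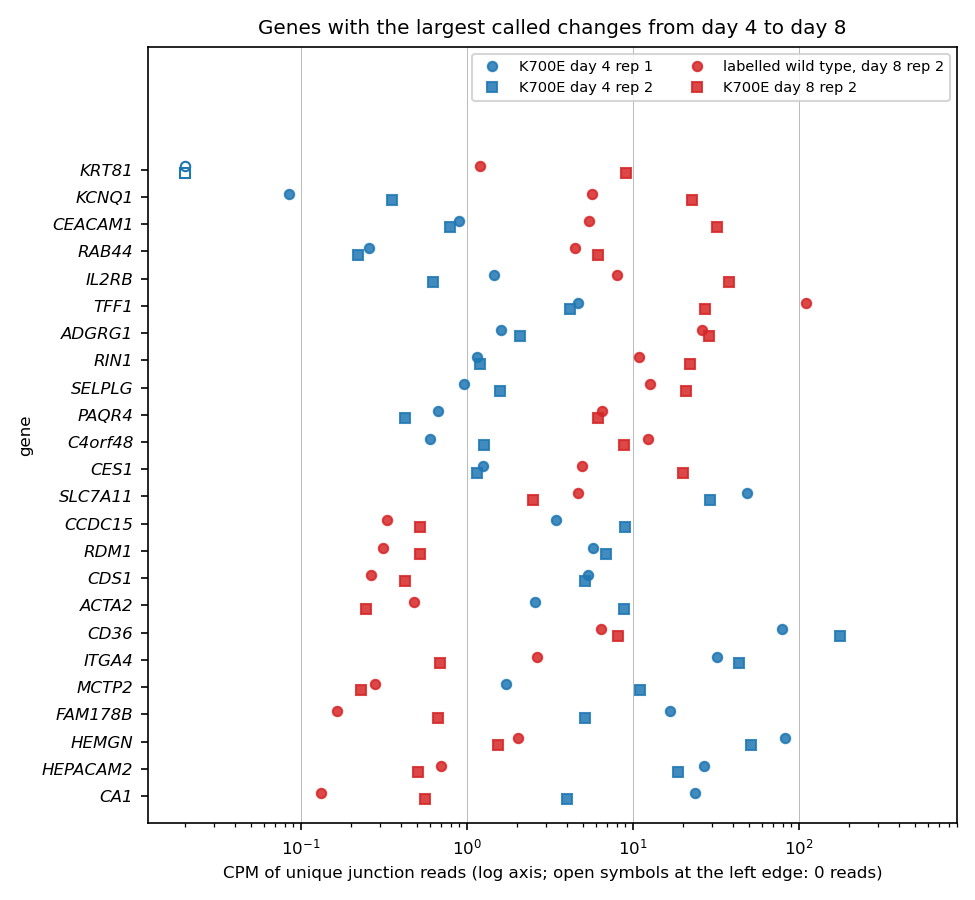
Level of the 24 genes with the largest called changes (y axis) in each of the 4 libraries, as CPM on a log axis (x axis). Blue symbols (day 4) and red symbols (day 8) do not overlap for any gene, which the rule for naming them required; open symbols mark KRT81, with 0 reads at day 4.

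Of the listed groups, mitosis genes had the largest share of calls. Of 24 tested, 19 fell and 0 rose, beside 7.87% and 7.99% of all genes, and their changes ran from -2.44 to -0.60 with a median of -1.42, beside 0.01 over all genes. CENPE, a kinetochore motor, stood at 275 and 271 CPM at day 4 and at 53.9 and 46.9 CPM at day 8. TOP2A, topoisomerase II alpha, stood at 2288 and 2098 CPM at day 4 and at 531 and 607 CPM at day 8. NUF2, a subunit of the NDC80 complex, stood at 204 and 221 CPM at day 4 and at 45.9 and 44.5 CPM at day 8. Day 8 was lower by a wide margin for each, KIF23 included. The median of the list was -1.29 after GC adjustment and -1.48 in the cryptic-low libraries. Cell cycle phase was not measured in these libraries.

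Promoters of cell cycle genes often hold a CHR element, and mitosis genes moved together, so that the letters TTTGAA were searched on both strands from 250 bases before to 50 after each start (RefSeq, GRCh38.p14). They occurred in 14 of the 20 promoters found among the 24 genes, and in 15.4% of all 27305 promoters. A match is a description and not a site of binding. The windows of 3 genes named above are shown with the match in capitals.
NUF2, chr1:163321958-163321987, plus strand: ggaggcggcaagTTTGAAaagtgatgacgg
KIF23, chr15:69414282-69414311, plus strand: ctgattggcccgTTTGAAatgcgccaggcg
TOP2A, chr17:40418073-40418102, minus strand: cgagtggtgcctTTTGAAgcctctctagtc
These 3 matches lie on the strand of the gene.

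Lists of tRNA charging, one-carbon metabolism and the ATF4 response held falls and no rises, where 7.87% of all genes fell and 7.99% rose. Of 18 aminoacyl-tRNA synthetases, which charge tRNAs with amino acids, 12 fell and 0 rose, with a median of -0.89 and of -0.88 after GC adjustment. EPRS1 stood at 2864 and 2643 CPM at day 4 and at 874 and 755 CPM at day 8. CARS1 stood at 563 and 476 CPM at day 4 and at 187 and 188 CPM at day 8. Of 15 serine and one-carbon enzymes, 6 fell and 0 rose. MTHFD2, the mitochondrial folate enzyme, stood at 704 and 582 CPM at day 4 and at 141 and 132 CPM at day 8. Of 18 genes of the ATF4 response, the transcription programme of the integrated stress response, 4 fell and 0 rose. ATF4 itself stood at 125 and 85.8 CPM at day 4 and at 52.0 and 51.0 CPM at day 8, and CHAC1, which degrades glutathione, at 6.26 and 1.82 CPM and then 0.232 and 0.164 CPM. The list's median was -0.85, and -1.28 after GC adjustment.

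The letters TGATGNAAN, which describe the element bound by C/EBP and ATF4 dimers, were searched in the same promoters on both strands. They occurred in 6 of the 14 synthetase promoters found, in 4 of 17 of the ATF4 list, in 1 of 10 of the one-carbon list and in 3.67% of all promoters. Both windows below hold the match on the opposite strand.
CARS1, chr11:3057409-3057438, minus strand: tccggggcggcgGTTGCATCAgattctagg
CHAC1, chr15:40953249-40953278, plus strand: acctcccctgccGTTGCATCActcctgcca
Capitals mark the match as read on the gene's strand.

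Proteins of the endoplasmic reticulum split. Of 18 genes of the unfolded protein response, 6 fell and 2 rose, beside 7.87% and 7.99% of all genes. HERPUD1, a factor of protein degradation there, stood at 142 and 106 CPM at day 4 and at 23.7 and 20.1 CPM at day 8. HSP90B1, its HSP90 chaperone, stood at 3115 and 2626 CPM at day 4 and at 713 and 912 CPM at day 8. SDF2L1, which rose, stood at 27.2 and 34.0 CPM at day 4 and at 68.6 and 101.8 CPM at day 8. Its change of 1.48 was 0.26 after GC adjustment.

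Calls among red cell membrane and globin genes were falls, and those among erythroid transcription factors went both ways. Of 20 red cell membrane genes, 7 fell and 0 rose, beside 7.87% and 7.99% of all genes, with a median of -1.36. GYPB stood at 35.6 and 41.5 CPM at day 4 and at 4.59 and 4.95 CPM at day 8. GYPB and GYPE are near copies, so their reads may have been divided between them. Of 10 globin genes, 2 fell and 0 rose, and 2 of the 8 others had changes above 0. HBG1, a fetal globin gene with a near-identical copy that may share its reads, stood at 308.9 and 53.01 CPM at day 4 and at 8.72 and 81.4 CPM at day 8, so that the days overlapped. HBD stood at 16.5 and 16.6 CPM at day 4 and at 3.37 and 1.25 CPM at day 8. HBB stood at 2.96 and 2.44 CPM at day 4, with 0 reads in the library labelled wild type day 8 replicate 2 and 0.0164 CPM in K700E day 8 replicate 2. HBZ, the embryonic alpha-like globin, stood at 38.0 and 8.23 CPM at day 4 and at 3.35 and 7.35 CPM at day 8, and was not called. Of 15 erythroid transcription factors, 2 rose and 1 fell. MYB, a transcription factor of progenitors, fell from 528 and 612 CPM to 245 and 146 CPM. LYL1 rose from 40.7 and 40.5 CPM to 78.7 and 95.8 CPM, a change of 1.10 that was 0.49 after GC adjustment. ZFPM1, the GATA1 cofactor, rose from 18.7 and 12.6 CPM to 63.4 and 81.6 CPM. The change of ZFPM1, 2.21, was 0.75 after GC adjustment.

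Heat shock genes moved the other way. Of 16 tested, 7 rose and 0 fell, beside 7.99% and 7.87% of all genes. Their median was 0.77, and 0.76 after GC adjustment. HSP90AA1, the inducible cytosolic HSP90, stood at 1277 and 1289 CPM at day 4 and at 2694 and 2617 CPM at day 8. HSPH1, an HSP110 chaperone, stood at 257 and 312 CPM at day 4 and at 619 and 811 CPM at day 8. DNAJA1, an HSP40 co-chaperone, stood at 281 and 284 CPM at day 4 and at 472 and 536 CPM at day 8. The change after GC adjustment was larger than before it in these 3. HSPB1, a small heat shock protein, went the other way, from 2.42 to 1.30.

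NF-kB targets and lysosomal genes also held more rises than falls, where 7.99% of all genes rose and 7.87% fell. Of 16 NF-kB targets, 5 rose and 0 fell, with a median of 1.03 and of 0.59 after GC adjustment. NFKBIA, the inhibitor of NF-kB, stood at 12.8 and 14.2 CPM at day 4 and at 32.6 and 32.9 CPM at day 8. Of 23 genes of autophagy and the lysosome, 5 rose and 0 fell, among them CTSB, the protease cathepsin B, at 281 and 219 CPM and then 597 and 752 CPM. Of 10 genes on the list of metallothioneins, which bind zinc and copper, 6 were tested, and 3 rose. SLC30A1, on the list as a zinc transporter and not a metallothionein, was not called. MT1X stood at 1.64 and 1.61 CPM at day 4 and at 10.3 and 7.66 CPM at day 8. Metallothionein genes are short and close in sequence, so their reads are less certain.

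Splicing factors were called at shares on both sides of the 15.9% of all genes. Of 22 SF3b and SF3a subunits and partners, 3 rose and 1 fell (18.2% called). Of the 3 that rose, U2AF2 and PUF60, with changes of 0.81 and 0.80, turned to -0.07 and -0.19 after GC adjustment. SF3B4 rose from 49.02 and 43.9 CPM to 118 and 143 CPM. Of 13 SR proteins, only SRSF2 was called, at 54.2 and 60.6 CPM at day 4 and at 150 and 146 CPM at day 8, and the list's median moved from 0.02 to 0.49 with GC adjustment. Of 16 hnRNP genes, 5 fell (31.2%) and 0 rose, with HNRNPL at 706 and 717 CPM and then 382 and 355 CPM. Their median of -0.35 was -0.03 after GC adjustment. Of 29 hotspot targets tested as genes, 2 rose and 4 fell. METTL5 stood at 258 and 298 CPM at day 4 and at 103 and 109 CPM at day 8, beside the shares of its cryptic acceptor given above. DYNLL1 rose from 53.1 and 59.0 CPM to 145 and 156 CPM.

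Genes of replication stress and transcription elongation, the processes named in the series' title, were also listed. Of 20 genes of replication stress and ATR signalling, 7 fell (35%) and 1 rose, beside 7.87% and 7.99% of all genes, with a median of -0.57 and of -0.34 after GC adjustment. FANCI, of the Fanconi anaemia pathway, stood at 598 and 609 CPM at day 4 and at 268 and 254 CPM at day 8. CHEK1, the kinase downstream of ATR, stood at 212 and 215 CPM and then 106 and 121 CPM. Of 25 elongation factors of RNA polymerase II, 4 fell (16%) and 1 rose. TCEA1, the elongation factor TFIIS, stood at 780 and 612 CPM at day 4 and at 286 and 291 CPM at day 8, and CDK9, the kinase of P-TEFb, at 39.8 and 45.2 CPM and then 73.4 and 72.8 CPM.

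**Figure D5:**
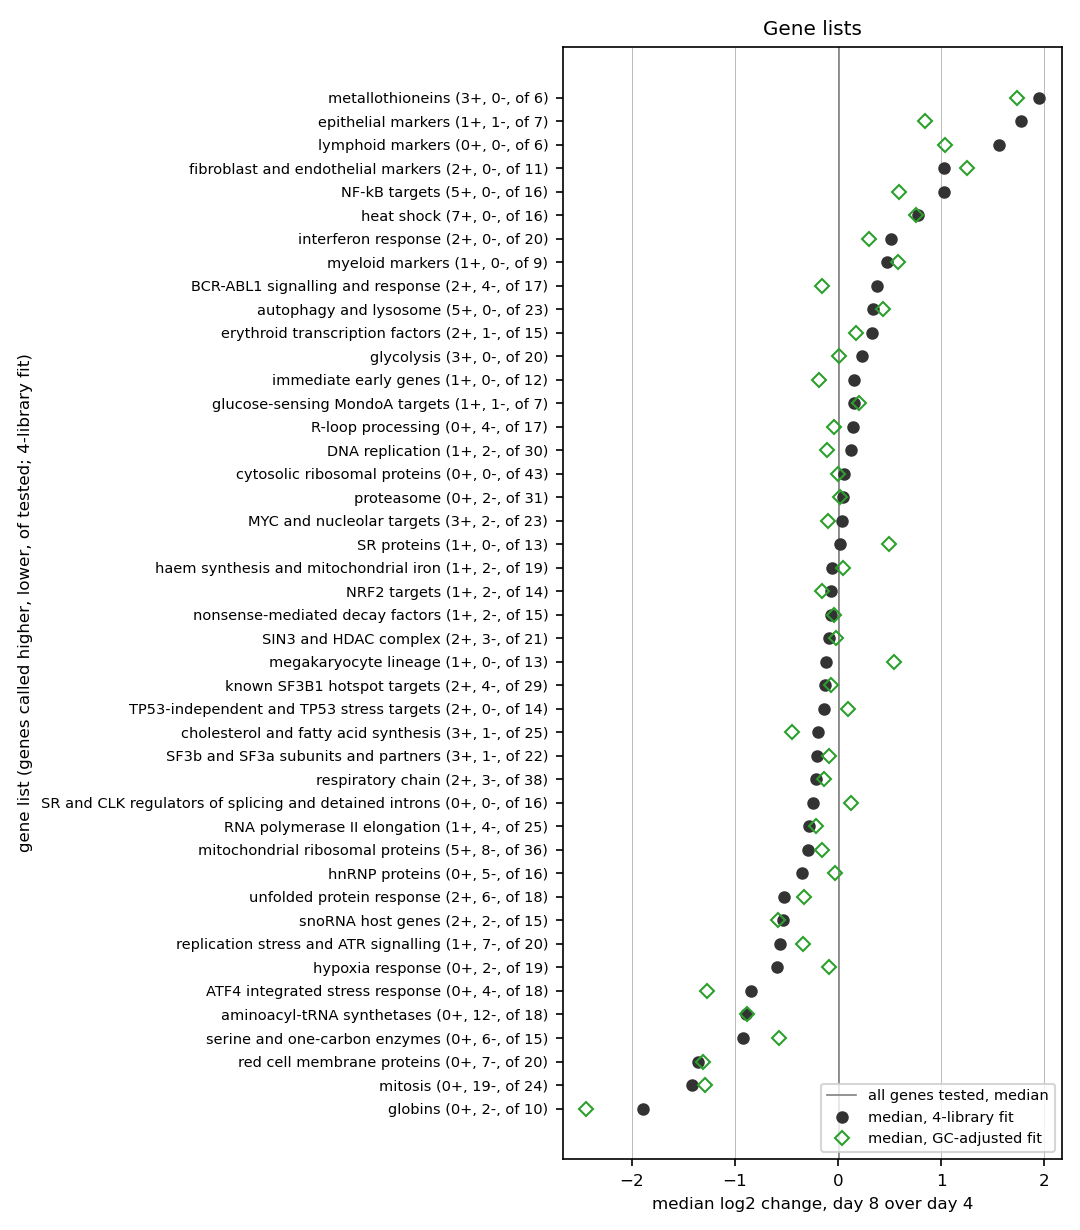
Median log2 change from day 4 to day 8 (x axis) of each gene list (y axis) in the fit of 4 libraries (filled) and after GC adjustment (open), with the genes called higher and lower of those tested. Mitosis genes (-1.42), red cell membrane proteins (-1.36) and aminoacyl-tRNA synthetases (-0.89) lie below the line of all genes, and heat shock genes (0.77) above it, under both fits.

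Markers of other cell types differed between libraries. Their counts of called genes stand beside 15.9% called among all genes. Lymphoid markers summed to 11.2 and 8.30 CPM at day 4, 11.4 CPM in the library labelled wild type day 8 replicate 2 and 48.6 CPM in K700E day 8 replicate 2, where CD3D alone gave 38.8 CPM; 0 of 6 tested were called. Of 17 myeloid markers, 1 of the 9 tested was called, with a summed level of 166 to 313 CPM, and ELANE had 0 reads. Megakaryocyte genes summed to 230 and 262 CPM at day 4, 203 CPM and 632 CPM at day 8, with PF4 at 0 to 0.133 CPM and 1 of 13 called. Epithelial markers summed to 704 and 498 CPM at day 4 and to 1096 and 2604 CPM at day 8, higher in both, with KRT18 called higher and EPCAM called lower. Fibroblast and endothelial markers summed to 2506 and 1893 CPM at day 4 and to 2361 and 3020 CPM at day 8, where VIM gave most of the sum. Of 11 tested, COL1A1 and KDR were called higher, and 10 had changes above 0. Whether a shift in the makeup of the cultures had a part in the results was not tested, and fewer cells of a type cannot be told apart from less RNA per cell.

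The cryptic-low libraries, which share no library with the 4, served to ask whether the day difference was particular to the cryptic-high ones. Across 13386 genes Pearson's r between the log2 changes was 0.68, and 0.60 with both sets adjusted for GC content. Of the 2241 called genes with a value in the cryptic-low libraries, 2210 had the same sign there. The same sign was not counted over all genes. GC content and alignment session go with day in both sets. The test of the difference between the day changes called 1 of 14902 genes (0.00671%), MT1X, with 707 genes at an unadjusted p under 0.05. It called 0 of 94959 acceptors (0%), with 2803 at an unadjusted p under 0.05. A p that misses the threshold does not show that the changes were alike.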

How the data were processed

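The deposited files held 1 table of splice junctions and 1 alignment log per library. Per the file headers of the logs, the authors aligned reads with STAR 2.7.0e to an index with GENCODE release 22; the submitters' processing notes name cutadapt, STAR and hg38. Values are counts of unique reads per junction, as deposited, not normalized. Reads on introns of exactly 1 gene of GENCODE release 29 (94.5% of unique reads) were summed per gene and tested with edgeR 4.0.16 (TMM, filterByExpr, quasi-likelihood). Introns of several genes (4.17%) were left out. Junctions needed 5 reads in 2 libraries and sites a mean of 20 reads. Shares are of all unique reads at the shared site. Acceptor and donor use were tested with edgeR's diffSpliceDGE as fixed at the outset.

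Beside diffSpliceDGE and the planned limma 3.58.1 diffSplice, 5 further tests of use were tried after the results had been seen: diffSpliceDGE with a site offset, a quasi-likelihood test with a site offset and limma on log odds, the last 2 also on middle shares alone. All 7, and the gene test, were tested on simulated data. There diffSpliceDGE recovered next to nothing, the version with a site offset made many false calls, and log odds on middle shares recovered most among the rest. The GC adjustments (lowess trend per library, span 0.3) were also added after the results had been seen.

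Named genes were called ones with days that did not overlap and 5 CPM at the higher day, 12 in each direction by size, up to 4 per list by p, SF3B1 and the hotspot targets; junctions were the 6 with the lowest p. The members and lists were chosen with earlier results of these data known. Alternatives were DESeq2 1.42.0, other size factors, filters and reads, all 8 libraries, and each library left out. Results of some listed genes are not reported here.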

Additional observations from a re-analysis of the deposited data

Results flagged for a closer look

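MT1X, a metallothionein, was the 1 gene whose day change differed between the cryptic-high and the cryptic-low libraries in edgeR's quasi-likelihood test of the difference. With all 8 libraries normalised together, in the cryptic-high libraries it stood at 1.60 and 1.58 CPM at day 4, 9.98 CPM in the library labelled wild type day 8 replicate 2 and 7.51 CPM in K700E day 8 replicate 2. In the cryptic-low libraries it stood at 53.0 and 32.6 CPM at day 4 and at 5.07 and 5.66 CPM at day 8. The log2 change was 2.47 in the first and -2.98 in the second, a difference of 5.45 (adjusted p = 0.0247, edgeR). Both day 8 libraries lay above day 4 in the first and below it in the second. The difference was 5.01 to 5.71 with 1 of the 8 libraries left out, and its adjusted p then ran from 0.0386 to 0.197 in edgeR. MT2A had a difference of 5.53 with an adjusted p of 0.181 in edgeR.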

How the results depend on the processing

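No paired analysis was possible because the groups compared share fewer than 2 replicate numbers: the day 4 libraries are replicates 1 and 2, and both day 8 libraries are replicates 2. The count of 2257 genes fell to 0 with any 1 of the 4 libraries left out (0 to 0), fits in which 1 day holds a single library assumed to vary like the others. Sizes stayed close there: ADGRG1 was 3.71 to 4.09, CENPE -2.53 to -2.35 and HEMGN -5.54 to -4.87. The count was also 0 with adjustment for GC content or for GC content and length. It was 3179 with all 8 libraries in 1 fit, 706 with GC adjustment in that fit, 3508 with no low-count filter, and 4483 in DESeq2. The GC adjustments were chosen after seeing the data, and the cause of the difference was not tested.

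The count of acceptors, 0 in the fixed test, was 0 to 1 with 1 library left out, 45 and 81 in the site-offset test without and with the restriction to middle shares, and 9304 in diffSpliceDGE with a site offset, which made many false calls on simulated data. It was 0 in limma diffSplice and in both log-odds tests. Donors gave 0 with 1 library left out, and 29 in limma diffSplice, 97 and 167 in the site-offset tests, 12725 in diffSpliceDGE with a site offset and 0 in both log-odds tests. Of these tests 5 were added after seeing the data, and no acceptor or donor is treated as changed.

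The median over targets was -6.29 to 1.78 points with 1 library left out, turning sign to 1.78 without K700E day 8 replicate 2. The difference of the day changes had 55 genes in DESeq2 and 0 to 2 with 1 library left out. Of 151 named genes, 5 turned sign with GC adjustment in each of its 3 forms (GC content, GC content and length, and all 8 libraries): U2AF2 (-0.0737, -0.0766, -0.0790), PUF60 (-0.188, -0.172, -0.196), SIN3B (-0.147, -0.160, -0.151), PFKL (-0.144, -0.154, -0.152) and MRPL4 (-0.267, -0.251, -0.275).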
